A study of Homo sapiens with 2 samples.

Results

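The genes described here are 38 factors that build ribosomes in the nucleolus, taken by name from the 33694 genes of the count tables, and all 38 had UMIs in both libraries. Ribosome biogenesis starts with transcription of ribosomal DNA by RNA polymerase I. Small nucleolar ribonucleoproteins (snoRNPs) then modify the transcript, box C/D particles by 2′-O-methylation and box H/ACA particles by pseudouridylation. Assembly factors finally fold and cleave the small and the large subunit. The pathway is known to run high in proliferating progenitors, and loss of TCOF1, POLR1C or POLR1D function underlies Treacher Collins syndrome, a disorder of cranial neural crest.

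All cells came from the established human embryonic stem cell line H9, without genetic change or added drug treatment. D10 was the adherent culture on Geltrex at day 10 of induction towards enteric neural crest cells (ENCCs), and D15 was the suspension culture of free-floating enteric crestospheres at day 15. Each stage was 1 library, prepared with 10x 3′ chemistry, that pooled 2 biological repeats which were not told apart here, so no difference below has a replicate check and no p-value is given. Stage, culture format, medium, depth and library cannot be told apart.

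D10 held 9627 cells with 70488169 UMIs and a median of 6713 UMIs per cell, and D15 held 6320 cells with 84976253 UMIs and a median of 11770.5. The authors assigned 7295 and 5336 of these cells to cell types and labelled the others as filtered for low quality. At D10 these were 4921 ENCCs, 1811 neuro-epithelial progenitors (NEP), 324 cranial placode (CP) cells and 239 non-neural ectoderm (NNE) cells. At D15 they were 4934 ENCCs, 208 CP1, 104 NEP, 47 mesenchymal (Mes) and 43 CP2 cells. Levels are given as CPM, a gene's UMIs relative to all UMIs after pooling the cells of each class, with an exact Poisson interval of 95% that covers counting error only. A 3′ UMI stands for a molecule, so levels of different genes were not divided by length. The 2 libraries shared 102 cell barcodes, 65 of them among assigned cells of both.

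Marker levels matched the class names with several exceptions. ENCCs carried SOX10, a crest transcription factor, at 119.7 CPM at D10 and 103.0 CPM at D15, against 12.6 and 4.36 CPM in NEP. Another ENCC marker, TFAP2A, was at 35.6 CPM in D10 ENCCs, but at 400 CPM in NNE and 112 CPM in CP. At D15 it was at 41.9 CPM in ENCCs, 66.0 CPM in Mes and 348 CPM in CP2. In NEP at both stages and in CP1, TFAP2A was lower than in ENCCs. The D10 NEP cells carried the NNE markers KRT8 and KRT18 at 483 and 538 CPM, and their summed NNE markers of 1298 CPM were close to their summed NEP markers of 1415 CPM. The D15 NEP cells carried summed NNE markers of 926 CPM, above their summed NEP markers of 266 CPM. In these cells KRT8 and KRT18 were at 341 and 374 CPM, and PAX6 and WNT2B at 112 and 123 CPM. The NEP marker SOX2 was at 16.1 CPM in D10 NEP and 21.2 CPM in D10 ENCCs, and at 29.6 and 22.0 CPM at D15. HES5, also an NEP marker, was at 0.14 CPM in D10 NEP and 0.03 CPM in D10 ENCCs, and at 0.87 and 5.50 CPM at D15. CP2 carried the NEP marker PAX6 at 381 CPM together with the placode marker ISL1 at 182 CPM. A further 256 D10 ENCCs outside the numbered subclusters had summed NEP markers of 1126 CPM, against 36.9 CPM in ENCC 1. The authors clustered the cells on expression, so that differences between clusters are descriptions.

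The members lie on many chromosomes, and their known features differ by role. NPM1, a nucleolar phosphoprotein (GRCh38 chr5:171387116-171411137, plus strand, GENCODE 29), has 45 pseudogenes named after it, and its reads could have been split or lost among them. Of the 38 genes, 8 hold annotated snoRNA genes within their bounds, among them NCL with SNORA75, SNORD20 and SNORD82, and NOP56 with 5. PPAN overlaps the readthrough gene PPAN-P2RY11, and GRWD1 overlaps KCNJ14 on the same strand, so both are uncertain. Another 13 members overlap a gene on the opposite strand.

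RefSeq promoters (GRCh38.p14) were found for 32 members. The E-box hexamer CACGTG, the motif bound by MYC and MAX dimers, reads the same on both strands. It stood within 250 bases upstream of a start in 6 of the 32 (18.75%), against 7.73% of all 27305 genes of the promoter table and 12.0% of the 6824 genes there that passed the filter on low values in ENCCs. The matches are shown with their neighbouring bases, because they place the motif relative to each start, and the hexamer is in capitals.
NOP10 (chr15:34343137-34343166, minus strand, first base of the motif 11 bases before the start): caggaaggaaattgacgaaCACGTGacgcg
UTP20 (chr12:101280075-101280104, plus strand, 10 bases before): gcgccgttcttttttccgtcCACGTGaccc
NAT10 (chr11:34105599-34105628, plus strand, 15 bases before): tttaatgcgcttgcgCACGTGctgtctacc
DDX21 (chr10:68956604-68956633, plus strand, 31 bases before 1 of 2 starts): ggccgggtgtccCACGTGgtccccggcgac
LYAR (chr4:4290068-4290097, minus strand, 64 bases before 1 of 2 starts): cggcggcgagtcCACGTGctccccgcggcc
EBNA1BP2 (chr1:43172790-43172819, minus strand, 237 bases before 1 of 2 starts): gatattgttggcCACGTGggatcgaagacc
NOP10 held a second copy of the hexamer outside the bases shown. From D10 to D15 ENCCs, these 6 genes ran from a log2 ratio of −0.19 for LYAR to 1.18 for DDX21. The 26 members without a match ran from −0.83 for NOB1 to 0.69 for WDR43. The 6 members without a promoter, BOP1 and NOP58 among them, were not searched. A match describes letters in a window and not a bound site.

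All 38 genes together took 0.530% of the UMIs at D10 and 0.510% at D15. The level was concentrated in a few genes. NPM1 alone supplied 51.0% of the members' UMIs at D10 and 42.7% at D15, and with NCL, the nucleolar RNA-binding protein nucleolin, and FBL, the box C/D methyltransferase fibrillarin, 69.2% and 63.5%. At the other end, POLR1B, the second largest subunit of RNA polymerase I, stood at 3.63 CPM in D10 ENCCs and 5.17 CPM in D15 ENCCs. The summed levels below therefore depend heavily on NPM1, and single genes are given beside them.

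Among D10 cell types, NEP had the lowest summed level. It was 5848 CPM in ENCCs (5823 to 5873), 5788 CPM in CP (5694 to 5882), 4993 CPM in NNE (4892 to 5096) and 4421 CPM in NEP (4386 to 4456). The intervals of ENCCs and CP overlapped, and those of the other neighbours did not. Of the 38 members, 26 were lowest in NEP and none was highest there, whereas 18 were highest in CP, 10 in ENCCs and 10 in NNE. Such counts of highest and lowest classes, here and below, were not made over all genes. Classes with few cells also reach either end more easily. The share of UMIs in cytoplasmic ribosomal protein genes was also higher in ENCCs and CP than in NEP and NNE, though NNE and not NEP had the lowest share. It was 44.1% of all UMIs in ENCCs, 41.1% in CP, 37.2% in NEP and 36.2% in NNE; their part in the differences was not tested.

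Between ENCCs and NEP at D10, 34 of the 38 members were higher in ENCCs and 4 lower. Genes with a mean of at least 5 CPM in the 2 classes compared passed the filter on low values, 36 members among them. Of these, 9 were at least 1.5-fold higher in ENCCs, where the background over all 9282 genes was 7.05%, and 0 were 1.5-fold lower, where it was 21.6%. The members' median log2 ratio (CPM + 1) was 0.30 and that of all genes −0.16. Over UMIs other than those of ribosomal protein and mitochondrial genes, the count of 1.5-fold higher members was 15 of 38 (background 11.5%).

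All 4 box C/D snoRNP members were among the 9. FBL was at 304 CPM in ENCCs and 172 CPM in NEP (log2 ratio 0.82). NOP58, a core protein of the particle, was at 44.6 and 25.9 CPM (0.76). NOP56, its paralogous partner, was at 107 and 70.7 CPM (0.59), and RRP9, which binds the U3 snoRNA, at 16.1 and 10.0 CPM (0.63). In each of the 4 the intervals of ENCCs and NEP were apart.

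The remaining 5 belonged to other steps. BOP1, a scaffold of large subunit processing, had the greatest log2 ratio of the members at 0.99 (15.02 CPM in ENCCs and 7.05 CPM in NEP). GNL3, the nucleolar GTPase nucleostemin, was at 80.3 against 46.3 CPM (0.78). BYSL, a small subunit factor, LYAR, a nucleolar zinc-finger protein, and NCL had log2 ratios of 0.65, 0.61 and 0.61. The box H/ACA members were closer together, from 0.06 for NOP10 to 0.47 for DKC1, the pseudouridine synthase dyskerin. EBNA1BP2, a large subunit factor, went the other way, with a log2 ratio of −0.31 and intervals apart.

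**Figure D1:**
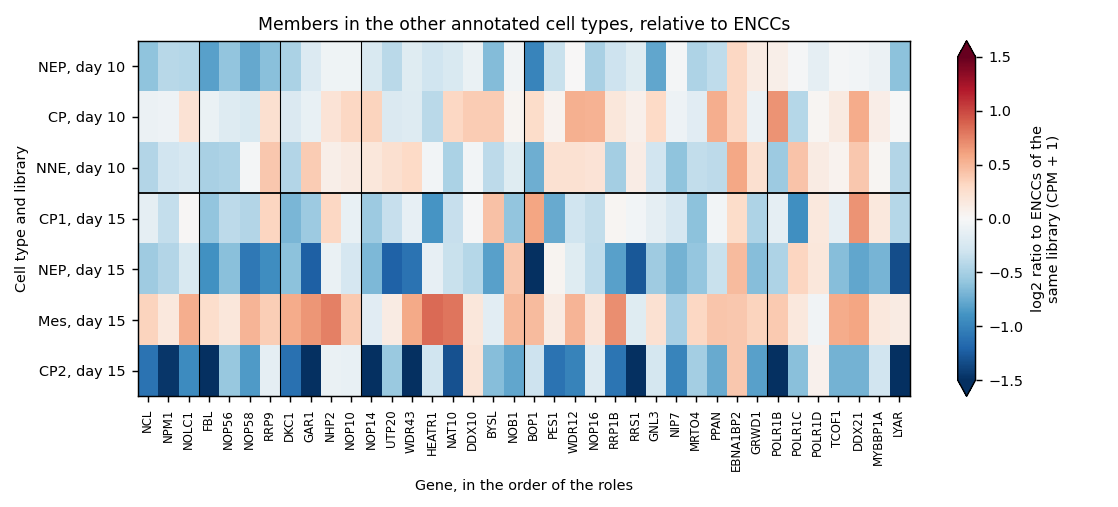
Log2 ratio (CPM + 1) of each of the 38 genes in the other annotated cell types to ENCCs of the same library, with genes along the x axis in the order of their roles, cell types on the y axis and colour for lower (blue) and higher (red) levels, which saturates at a ratio of 1.5 either way. NEP is mostly blue at both stages, Mes is mostly red, and CP2 holds most of the darkest blue.

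CP and NNE stood closer to ENCCs in these genes. Against CP, 15 members were higher in ENCCs and 23 lower, and the median of the 37 that passed was −0.07 against −0.02 for all genes. None of the 37 was 1.5-fold higher in ENCCs (background 7.19%) and 1 was 1.5-fold lower (10.5%), POLR1B at 3.63 CPM in ENCCs and 6.38 CPM in CP with overlapping intervals. DDX21, an RNA helicase that acts in polymerase I transcription and rRNA processing, was at 50.2 CPM in ENCCs and 74.2 CPM in CP, with intervals apart. Against NNE, 2 of 36 were 1.5-fold higher in ENCCs (10.1%), BOP1 and NIP7, both large subunit factors, and 0 were lower (23.4%), with a median of 0.03 against −0.14. That NNE count was 12 over UMIs other than those of ribosomal protein and mitochondrial genes, where the background was 18.3%. DDX21 and EBNA1BP2 were higher in NNE, with log2 ratios of −0.40 and −0.58 and intervals apart.

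At D15, among the classes of over 100 cells, ENCCs again had the highest summed level and NEP the lowest. The summed level was 5269 CPM in ENCCs (5250 to 5288), 4514 CPM in CP1 (4429 to 4600) and 3843 CPM in NEP (3731 to 3959). The small classes stood outside this range, at 6397 CPM in the 47 Mes cells (6189 to 6610) and 2572 CPM in the 43 CP2 cells (2418 to 2734). Of the 38 members, 28 were highest in Mes and 21 lowest in CP2. The median log2 ratio of ENCCs over CP2 was 0.75 for the members and −0.49 for all genes. Over Mes it was −0.35 and −0.19. Ribosomal protein genes took 44.5% of the UMIs in ENCCs, 39.2% in Mes, 32.6% in NEP, 31.5% in CP1 and 19.8% in CP2. At D15, 34.7% of ENCCs, 78.8% of CP1 and 81.7% of NEP cells were called G1. Within G1 the summed levels kept the order, at 5177, 4065 and 3785 CPM. CP1 was above ENCCs in S, at 6690 CPM in 8 cells against 5370 CPM. It was also above them in G2M, at 5946 CPM in 36 cells against 5211 CPM. NEP stayed lowest in both, at 4449 and 3734 CPM in 10 and 9 cells. The part of phase was not tested.

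Between D15 ENCCs and NEP, 18 of the 36 members that passed were at least 1.5-fold higher in ENCCs (background 12.1%) and 0 lower (34.1%). The members' median log2 ratio was 0.60, and that of all genes −0.30. In all, 33 of 38 were higher in ENCCs. The count was 28 over UMIs other than those of ribosomal protein and mitochondrial genes (background 21.0%), and 11 with G1 cells only (9.48%).

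The same 4 box C/D members were again 1.5-fold higher, from 0.63 for NOP56 to 1.07 for NOP58, so this group was higher in ENCCs than in NEP in both libraries. The D15 list began with BOP1, at 28.0 CPM in ENCCs and 8.72 CPM in NEP (1.57). LYAR followed at 41.0 and 15.7 CPM (1.33), RRS1, a factor of 5S RNP incorporation, at 22.5 and 8.72 CPM (1.27), and GAR1, a box H/ACA protein, at 27.8 and 11.3 CPM (1.23). UTP20, a component of the small subunit processome, was at 11.4 and 4.36 CPM (1.21). The NEP levels of these genes rest on few UMIs, as 3 UMIs in the 104 NEP cells stand for 2.62 CPM. EBNA1BP2 was again higher in NEP, at 42.9 CPM in ENCCs and 60.1 CPM in NEP. NOB1, the nuclease that cuts the 3′ end of 18S rRNA, was also higher in NEP, at 51.8 and 68.9 CPM, with intervals apart.

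CP1 differed from ENCCs in both directions. Of 37 members, 7 were 1.5-fold higher in ENCCs (12.7%) and 2 were 1.5-fold lower (27.7%), with a median of 0.25 against −0.20 for all genes. POLR1C, a subunit shared by RNA polymerases I and III, was at 15.9 CPM in ENCCs and 7.95 CPM in CP1 (0.92), and HEATR1, a small subunit processome protein, at 12.4 and 6.28 CPM (0.88). DDX21 went the opposite way, at 115 and 183 CPM (−0.67), as did BOP1, at 28.0 and 42.7 CPM (−0.59). Over UMIs other than those of ribosomal protein and mitochondrial genes, 18 members were 1.5-fold higher in ENCCs (23.7%) and 0 lower (18.9%). DDX21 and BOP1 were then inside the fold.

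CP2 and Mes had few cells, and their values rest on 1034 and 3587 member UMIs. Against CP2, 23 of 37 members were 1.5-fold higher in ENCCs (18.7%) and 0 lower (46.8%). FBL was at 285 CPM in ENCCs and 32.3 CPM in CP2 (3.10), the widest gap of any member between these classes. POLR1B had 0 UMIs in CP2, which allows a level of up to 7.46 CPM. Against Mes, 0 of 38 were 1.5-fold higher in ENCCs (11%) and 6 were 1.5-fold lower (21.7%), a share below the background, while 33 of 38 were lower in ENCCs in any amount. The 6 were HEATR1, NAT10, NHP2, RRP1B, GAR1 and DDX21, of which HEATR1 and GAR1 had overlapping intervals. All 43 CP2 cells were called G1 and 25.5% of Mes cells were, and the part of phase in these differences was not tested.

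**Figure D2:**
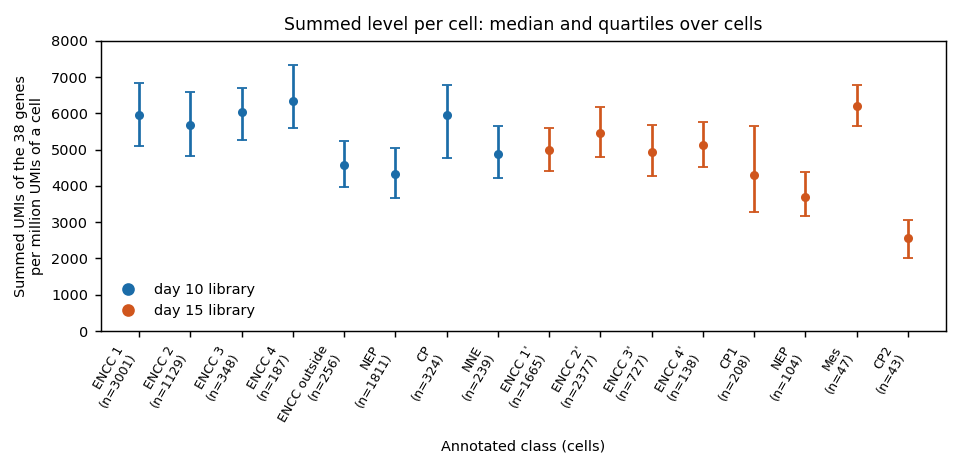
Summed CPM of the 38 genes within each cell (y axis, from 0) by annotated class (x axis, with its number of cells), as the median (point) and quartiles (bars) over cells. The D10 classes run from a median of 4323 in NEP to 6338 in ENCC 4, and the D15 classes from 2575 in CP2 to 6189 in Mes.

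Within ENCCs the authors numbered 4 subclusters at each stage, and the numbering is separate for each stage. At D10 the summed level was highest in ENCC 4, at 6498 CPM (6364 to 6634), followed by 6056 CPM in ENCC 3 (5955 to 6159), 5953 CPM in ENCC 1 (5922 to 5985) and 5713 CPM in ENCC 2 (5661 to 5765). The intervals of ENCC 3 and ENCC 1 overlapped. Of 38 members, 21 were highest in ENCC 4 and 11 in ENCC 3, and 20 were lowest in ENCC 2.

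ENCC 4, with 187 cells, had 5 of 36 members 1.5-fold higher than ENCC 1 (6.33%) and 0 lower (7.2%), with a median of 0.24 against 0.00 for all genes. These were NOP16 at 28.9 CPM in ENCC 1 and 47.8 CPM in ENCC 4, GAR1 at 25.4 and 42.0 CPM, RRS1 at 15.9 and 25.3 CPM, GNL3 at 81.6 and 127 CPM, and RRP9 at 16.5 and 26.1 CPM with overlapping intervals. ENCC 4 also carried summed CP markers at 146 CPM against 12.5 CPM in ENCC 1, and the part of these in the difference was not tested. ENCC 3, with 348 cells, shared 3 of the 5 genes, with RRS1 at 29.4, GAR1 at 43.2 and NOP16 at 47.2 CPM, and added EBNA1BP2 at 62.3 CPM against 40.3 CPM in ENCC 1. That made 4 of 36 higher (4.27%) and 0 lower (7.31%), which became 1 higher (8.65%) and 1 lower (9.12%) with G1 cells only. For ENCC 4, G1 cells only gave 5 higher (11.0%) and 1 lower (10.8%). ENCC 2 had 0 members past 1.5-fold either way (2.71% higher, 0.0467% lower), and its greatest log2 ratio to ENCC 1 was 0.47 for WDR43, a small subunit processome protein.

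The 256 D10 ENCCs outside the numbered subclusters had a summed level of 4650 CPM, between ENCC 2 and NEP. Of the 38 members, 28 were lower there than in ENCC 1. Of 37 that passed, 1 was 1.5-fold higher (24.8%), MYBBP1A, and 2 were lower (6.31%), BOP1 at 6.67 CPM against 16.4 CPM and GRWD1 at 12.9 CPM against 20.03 CPM. MYBBP1A and GRWD1 each had overlapping intervals. The NEP markers of these cells, given above, moved with this difference, as did summed NNE markers at 899 CPM against 49.0 CPM in ENCC 1 and the share of ribosomal protein UMIs at 37.8% against 44.7%. Their part in it was not tested.

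At D15, ENCC 2′ stood above the other subclusters in most members. Its summed level was 5521 CPM (5493 to 5549), against 5185 CPM in ENCC 4′ (5071 to 5301), 5037 CPM in ENCC 3′ (4989 to 5086) and 5035 CPM in ENCC 1′ (5003 to 5067). Of 38 members, 29 were highest in ENCC 2′ and 27 lowest in ENCC 4′. The median log2 ratio of ENCC 4′ over ENCC 1′ was −0.27 for the members and −0.20 for all genes. The medians of UMIs per cell were close, at 11193 in ENCC 1′ and 11101 in ENCC 2′, and ribosomal protein genes took 44.6% and 44.2% of UMIs.

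Of the 38 members, 33 were higher in ENCC 2′ than in ENCC 1′ and 5 were lower. The members' median log2 ratio was 0.31, against 0.06 for all genes. At least 1.5-fold higher were 6 (15.8%, against a background of 1.31%), and 0 were lower (3.82%). With G1 cells only, 17 were higher (background 12.0%) and 1 lower (6.69%), with a median of 0.51 against 0.12 for all genes.

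RRS1 had the greatest ratio, at 14.1 CPM in ENCC 1′ and 29.9 CPM in ENCC 2′ (1.03). NOP16 was at 25.8 and 43.7 CPM (0.74), RRP9 at 14.2 and 22.9 CPM (0.65) and BOP1 at 21.4 and 33.9 CPM (0.64). UTP20 was at 9.005 and 14.3 CPM (0.62), and DDX21 at 91.5 and 141 CPM (0.62). The 6 belong to the large subunit, small subunit, box C/D and polymerase I roles. NPM1 and FBL, among the most abundant members, were slightly lower in ENCC 2′, at 2356 and 2278 CPM (−0.05) and at 304 and 282 CPM (−0.11). NAT10, the acetyltransferase of 18S rRNA, was the lowest of the members, at 23.2 and 18.2 CPM (−0.33).

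ENCC 4′, with 138 cells, had 10 of 36 members 1.5-fold lower than ENCC 1′ (25.3%) and 0 higher (7.92%), a share near the background. The lowest were NOP58 with a log2 ratio of −1.02, MRTO4, a large subunit factor, at 56.5 CPM in ENCC 1′ and 28.4 CPM in ENCC 4′, NIP7 at 25.3 and 13.2 CPM and TCOF1, the polymerase I cofactor treacle, at 34.5 and 18.5 CPM. NPM1, POLR1D and NOB1 were higher in ENCC 4′, with log2 ratios of 0.26, 0.41 and 0.53 and intervals apart. Of ENCC 4′ cells 86.2% were called G1, against 32.8% in ENCC 1′. With G1 cells only, 2 members were 1.5-fold lower (17.9%) and 1 higher (7.23%). ENCC 3′ had 0 members past 1.5-fold (3.16% higher, 5.13% lower).

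**Figure D3:**
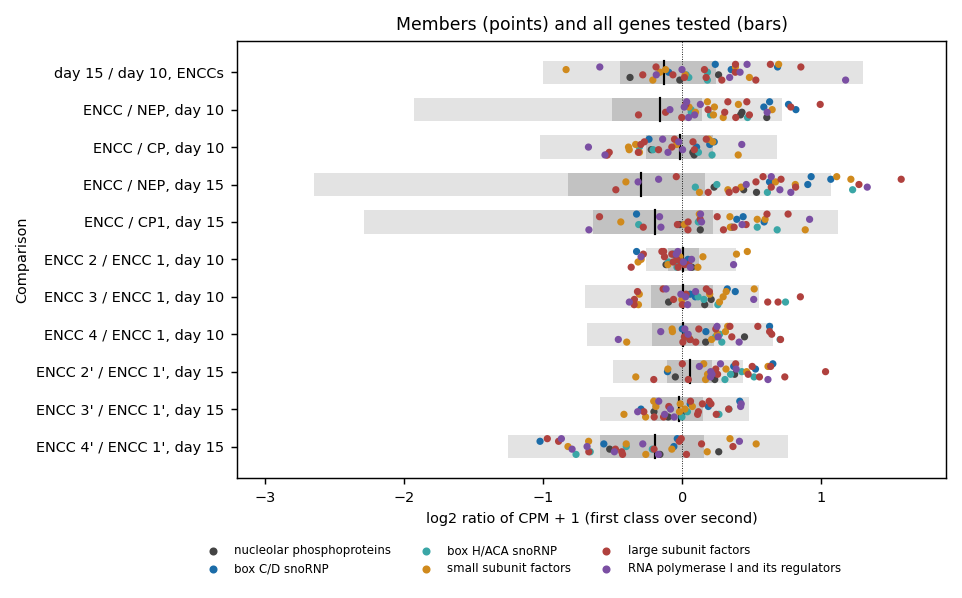
Log2 ratio (CPM + 1) on the x axis for 11 comparisons on the y axis, with each member as a point coloured by role, the middle 50% and 90% of all genes that passed the filter as dark and light bars and their median as a black line. Members lie mostly to the right of the median line for ENCC over NEP at both stages and for ENCC 2′ over ENCC 1′, and around it for ENCC over CP at D10.

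The phase calls come from scores on 43 S and 54 G2M genes, which include 0 members, and free RNA can enter such scores, whose part was not tested. At D10 the members stood near the background in every phase. The median log2 ratio within ENCCs was −0.02 for S over G1, against −0.04 for all genes, and 0.04 for G2M over G1, against 0.04. Past 1.5-fold were 0 members higher (6.03%) and 1 lower (3.24%) in S, and 0 higher (7.7%) and 0 lower (3.76%) in G2M. The summed level was 6228 CPM in G1, 5985 CPM in S and 5316 CPM in G2M, and NPM1 had the same order at 3439, 3117 and 2483 CPM.

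At D15, 31 of 38 members were higher in S than in G1 within ENCCs, and the median log2 ratio was 0.25 against 0.11 for all genes. At least 1.5-fold higher were 4 (9.34%) and 0 lower (2.91%). NOLC1, a chaperone of snoRNPs in the nucleolus, was at 41.5 CPM in G1 and 69.1 CPM in S (0.72). NOP14, a small subunit factor, was at 17.5 and 28.4 CPM (0.67), NOP56 at 101 and 157 CPM (0.64) and DKC1 at 53.3 and 80.9 CPM (0.59). In G2M, 2 of 37 were 1.5-fold higher than in G1 (8.76%) and 0 lower (1.82%), DDX10, an RNA helicase, at 19.6 and 31.5 CPM and NOP58 at 54.8 and 82.7 CPM. The count in G2M was 0 over UMIs other than those of ribosomal protein and mitochondrial genes (background 6.84% higher, 4.27% lower).

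A few genes kept the same order of phases in both libraries. NOLC1 was higher in S than in G1 at D10 as well, at 38.2 and 55.3 CPM, and its level in G2M was near that in G1 at both stages. NOP56, DKC1 and TCOF1 were also higher in S at D10, with log2 ratios of 0.39, 0.33 and 0.37 and intervals apart. NPM1, NOB1 and POLR1D were lower in S than in G1 in both libraries with intervals apart, NOB1 at 108 and 89.2 CPM at D10 and 57.8 and 46.5 CPM at D15. RRP9 was 1.5-fold lower in S at D10, at 19.3 and 12.2 CPM, and was at 16.5 and 20.1 CPM at D15 with overlapping intervals.

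Within D10 NEP cells, 31 of 38 members were higher in S than in G1, and 6 of 35 were 1.5-fold higher (8.36%) with 0 lower (6.5%). NOLC1 was at 27.5 CPM in G1 and 52.8 CPM in S, and TCOF1 at 20.7 and 40.2 CPM. NOB1 was again lower in S, at 99.4 and 74.3 CPM. In G2M, 3 of 35 were 1.5-fold higher than in G1 (10.3%) and 0 lower (6.5%), LYAR, NOP58 and TCOF1.

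**Figure D4:**
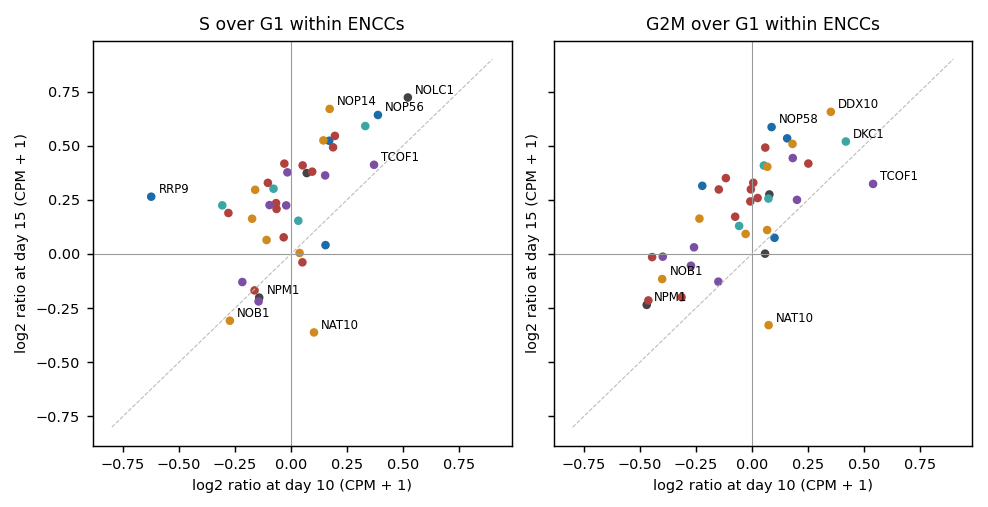
Log2 ratio (CPM + 1) of each member within ENCCs for S over G1 (left) and G2M over G1 (right), at D10 on the x axis and at D15 on the y axis, coloured by role as in the plot of comparisons, with equal ratios on the dashed line. Most points lie above the dashed line in both panels, NOLC1 is highest for S, and NPM1 lies below 0 on both axes in both panels.

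Between the stages, single members differed in both directions. The share 1.5-fold higher was near the background, and the share 1.5-fold lower was below it. Within ENCCs, 5 of 37 members were 1.5-fold higher at D15 (13.5%, against a background of 13.4%) and 2 were 1.5-fold lower (5.41%, against 16.7%). In all, 25 of 38 were higher and 13 lower, and 10 had overlapping intervals, a count that was not made over all genes. The members' median log2 ratio was 0.17, against −0.13 for all genes. TMM scaling moved all ratios up by 0.19, and G1 cells only gave a member median of −0.07 against −0.20 for all genes. With whole libraries, which include the cells labelled as low quality, 5 of 37 were 1.5-fold higher (14%) and 1 lower (19.4%). TMM scaling made that 13 (19.4%) and 1 (12.2%). Without TMM scaling, 2 were past 2-fold higher, DDX21 and BOP1 (7.71%), and 0 lower (7.47%).

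DDX21 (chr10:68956128-68985073, plus strand) was the 1 member past 2-fold within ENCCs (background 7.43% higher, 5.03% lower), at a log2 ratio of 1.18. Its level was 50.2 CPM at D10, with an interval of 47.9 to 52.5, and 115 CPM at D15, with an interval of 112 to 117. BOP1 was at 15.02 and 28.0 CPM (0.85), NOP58 at 44.6 and 72.4 CPM (0.69), WDR43 at 32.9 and 53.9 CPM (0.69) and PES1, which forms a complex with BOP1 and WDR12, at 28.0 and 44.0 CPM (0.63). WDR12, the other partner, was at 21.1 and 25.9 CPM (0.29). With G1 cells only, NOP58 was at a log2 ratio of 0.38, below the fold, and NAT10 at 0.77, above it.

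NOB1 (chr16:69741867-69754940, minus strand) had the lowest log2 ratio, −0.83. Its level was 93.1 CPM at D10, with an interval of 90.04 to 96.3, and 51.8 CPM at D15, with an interval of 49.9 to 53.7. POLR1D was at 243 and 161 CPM (−0.59) and NPM1 at 3019 and 2328 CPM (−0.37). These 3 were also lower in S than in G1 in both libraries with intervals apart, and within G1 cells their stage ratios were −0.89, −0.56 and −0.42. With TMM scaling POLR1D was at −0.41, inside the fold. NCL at 814 and 805 CPM (−0.02) and FBL at 304 and 285 CPM (−0.10) lay near 0 and changed sign with TMM scaling, to 0.17 and 0.09.

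By role, and over the members that passed the filter, the box C/D members had a median log2 ratio of 0.30, the large subunit factors 0.23, the polymerase I group 0.17, the box H/ACA members 0.11, the nucleolar phosphoproteins −0.02 and the small subunit factors −0.05. All 4 box H/ACA members lay within 0.03 to 0.18, the narrowest range of any role. The polymerase I group had the widest, from −0.59 for POLR1D to 1.18 for DDX21.

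**Figure D5:**
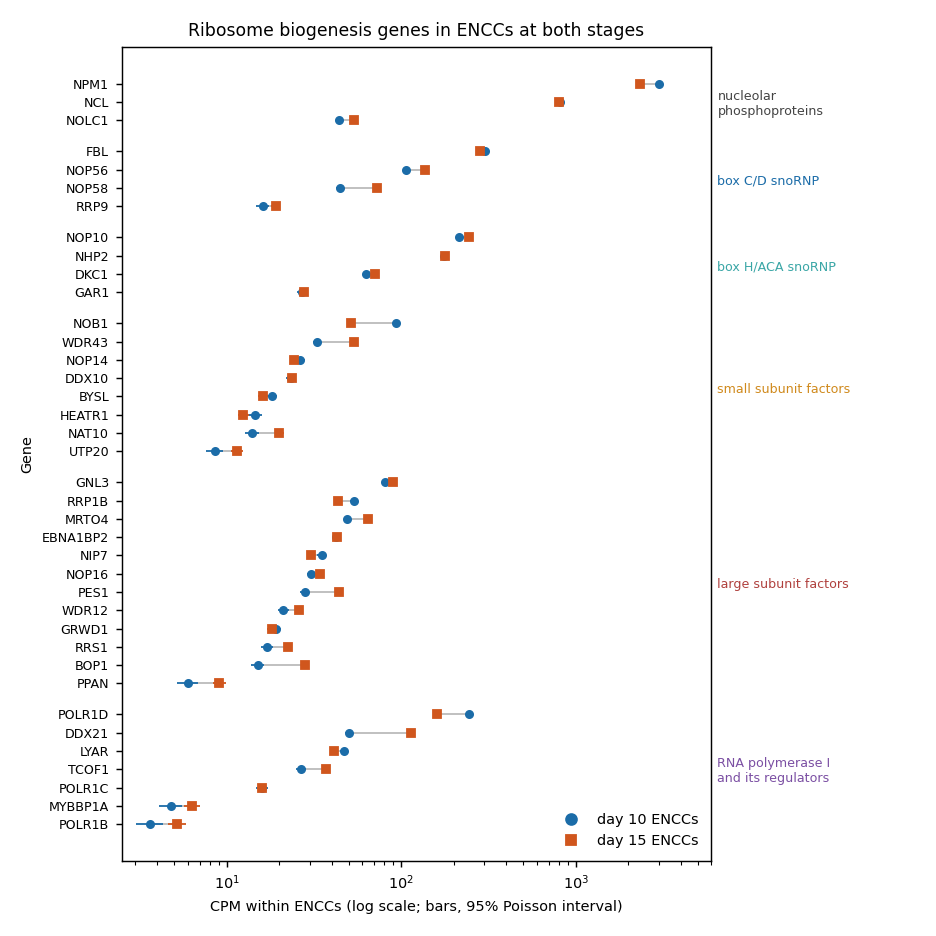
CPM of each of the 38 genes within ENCCs on a log axis (x), at D10 (blue circles) and D15 (orange squares), with 95% Poisson intervals as bars and genes grouped by role on the y axis. DDX21 has the widest gap to the right at 50.2 and 115 CPM, and NOB1 the widest to the left at 93.1 and 51.8 CPM.

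The Treacher Collins genes named at the start, TCOF1, POLR1C and POLR1D, went 3 ways from D10 to D15 within ENCCs. TCOF1 (chr5:150357629-150400308, plus strand) was higher at D15, at 26.7 CPM with an interval of 25.1 to 28.4 and then 37.3 CPM with one of 35.7 to 38.9 (0.47). POLR1C (chr6:43509702-43562419, plus strand) was at 15.9 CPM in both libraries. POLR1D (chr13:27620742-27744237, plus strand), a small subunit shared by RNA polymerases I and III, was lower, as given above. Across cell types TCOF1 was between 26.1 and 29.5 CPM in all 4 classes at D10, and at D15 between 22.4 CPM in CP2 and 55.3 CPM in Mes. POLR1C was lowest in CP, at 11.6 CPM at D10 and 7.95 CPM in CP1 at D15, and the D10 interval overlapped that of ENCCs. Within D15 ENCCs, TCOF1 was highest in ENCC 2′ at 42.0 CPM and lowest in ENCC 4′ at 18.5 CPM, whereas POLR1D was lowest in ENCC 1′ at 146 CPM and highest in ENCC 3′ at 196 CPM.

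Other genes of the pathway were read from lists of named factors. Within ENCCs between the stages, 4 of 41 other small subunit factors that passed were 1.5-fold higher at D15 and 0 lower (median 0.10), with TSR3, which modifies 18S rRNA, at 6.66 and 45.6 CPM and FCF1, an endonuclease of the processome, at 17.7 and 46.1 CPM. Of 52 other large subunit factors, 10 were higher and 0 lower (median 0.26), with PUM3 at 25.8 and 65.1 CPM and RRP15 at 25.2 and 56.1 CPM. Of 12 other RNA polymerase I factors, 1 was higher, CD3EAP at 9.42 and 17.8 CPM, and UBTF, which binds ribosomal DNA as a transcription factor, was at 18.1 and 26.8 CPM. Together that was 15 of 105 higher and 0 lower, beside 13.4% and 16.7% of all genes. In ENCCs over NEP these 3 lists together had 8 of 103 genes 1.5-fold higher and 0 lower at D10, and 27 of 107 higher and 5 lower at D15, with medians of 0.09 and 0.24. All genes had medians of −0.16 and −0.30 there, with 7.05% higher and 21.6% lower at D10 and 12.1% higher and 34.1% lower at D15, so the D10 count of higher genes was near the background.

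For the counts of this paragraph, the background within ENCCs was 13.4% of all genes 1.5-fold higher at D15 and 16.7% lower. RNA polymerase III subunits were mostly lower at D15. Of 14 that passed, 1 was above 0 and the median log2 ratio was −0.41, against −0.13 for all genes, with 0 past 1.5-fold upwards and 1 downwards, POLR3GL at 38.6 and 24.3 CPM. The 1 above 0 was POLR3G at 9.47 and 14.2 CPM, the subunit that is known to be exchanged for POLR3GL as stem cells differentiate. RNA exosome genes, whose products trim rRNA precursors, had 3 of 14 higher and 0 lower (median −0.13), led by SKIV2L2 at 30.6 and 70.1 CPM. Of 10 snoRNA host genes, 4 were higher and 3 lower, from SNHG7 at 182 and 87.5 CPM to SNHG9 at 7.44 and 41.1 CPM. Cytoplasmic ribosomal protein genes had 15 of 83 higher and 3 lower with a median of −0.10, and ranged from RPL22L1 at −1.32 to RPS29 at 2.09, a spread wider than that of the members.

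MYC family genes, whose products are known to drive ribosome biogenesis, were read together with their partners. In ENCCs over NEP at D10, 3 of the 8 that passed were above 0, with a median of −0.08 against −0.16 for all genes. Past 1.5-fold were 2 higher (7.05%) and 0 lower (21.6%). At D15, 3 of 9 were above 0, with a median of −0.28 against −0.30. Past 1.5-fold were 2 higher (12.1%) and 3 lower (34.1%). The single genes below therefore do not stand for the family. MYCN was at 19.2 CPM in D10 ENCCs (17.8 to 20.6), 19.5 CPM in CP, 5.42 CPM in NNE and 4.99 CPM in NEP (3.89 to 6.30). At D15 it was at 23.8 CPM in ENCCs (22.6 to 25.1), 30.6 CPM in CP1, 37.5 CPM in Mes and 5.23 CPM in NEP (1.92 to 11.4). At both stages its level in NEP was below that in ENCCs with intervals apart, whereas the NEP interval overlapped that of NNE at D10 and that of CP2 (7.46 CPM) at D15. Within D15 ENCCs it was at 27.9 CPM in ENCC 2′, 22.3 CPM in ENCC 1′, 16.8 CPM in ENCC 3′ and 9.23 CPM in ENCC 4′. MYC was at 1.92 CPM in D10 and 5.68 CPM in D15 ENCCs, and was highest in CP1 at 23.5 CPM. Its antagonist MXI1 was at 10.6 and 32.7 CPM in ENCCs, the highest stage ratio of the 8 family members that passed there. Of these, 1 was 1.5-fold higher at D15 (background 13.4%) and 2 were lower (16.7%).

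Across the 14 annotated classes of at least 50 cells, centred within each library, the genes whose log2 level was most like the summed members were C14orf166 (Pearson r 0.97), APEX1 (0.96), IDH2 (0.96), NIFK (0.96), SNRPD1 (0.95), CUEDC2 (0.94), ABCE1 (0.93) and TFAP2B (0.92), of 4419 genes. The classes share 2 libraries and the sum depends heavily on NPM1, so this is a description only. Of the members, 21 had r above 0.5, beside 13.4% of all genes, and 4 were below 0, EBNA1BP2 the lowest at −0.46. Each member is itself part of the sum, which raises its r, so the share of all genes is not a fair background for this count.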

How the data were processed

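The count tables hold UMI counts per gene and cell, deposited by the authors beside a table of each cell's cluster, subcluster and phase. Per the labels' processing notes, Cell Ranger, Seurat 4.0.4 and GRCh38 were used, whereas the study's methods name kallisto and bustools. Replicates were pooled in each library and their hashtags were not assigned here. Mitochondrial and ribosomal shares per cell were deposited by the authors as percent values, and a novelty score deposited by the authors as a fraction was not used.

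UMI counts were summed per class and expressed as CPM of all UMIs of the class. Genes with a mean of at least 5 CPM in the 2 classes compared were kept, and log2 ratios were taken on CPM + 1. A gene past 1.5-fold (2-fold where named) was counted. With 1 library per stage no test was run. Intervals are exact Poisson at 95%, and a count of 0 allows up to 3 UMIs of the class total. The ratio code was tested on simulated data. No doublet caller was run.

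All 38 members are reported. Beyond them, the text names genes among the 3 highest and 3 lowest stage ratios of each list, the 8 genes most like the summed members, and, outside this rule and after its values were seen, MYC. The result of 1 further gene list is not reported here. The members and lists were chosen with earlier results of these data known. Alternatives were TMM scaling (edgeR 4.0.16), a total without ribosomal protein and mitochondrial UMIs, a pseudocount of 5 CPM, no filter or a mean of at least 20 CPM, thinning to 3000 UMIs, equal weight per cell, leaving out the 6% of cells with the most UMIs, UMIs per cell, G1 cells only, equal weight of phases, kept cells only, and phases scored again with scanpy 1.11.5. Python 3.11.15 and R 4.3.3 were used.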

Additional observations from a re-analysis of the deposited data

How the results depend on the processing

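The number of members past 1.5-fold was recomputed 89 times over 18 results, and 66 values lay within 1.5 times of the value reported. No called ratio changed sign in the 3040 pairs of member and setting, and 171 pairs crossed the fold. TMM scaling gave 14 members between whole libraries and 26 genes of the pathway lists within ENCCs. A total without ribosomal protein and mitochondrial UMIs gave 15 (ENCC over NEP, D10), 12 (NNE), 18 (CP1), 28 (NEP, D15) and 0 (G2M over G1, D15). G1 cells only gave 11 for NEP at D15, 1 for ENCC 2, 2 for ENCC 3, 18 for ENCC 2′, 2 for ENCC 3′ and 3 for ENCC 4′. Without the 6% of cells with the most UMIs, the counts were 2 for CP and 4 for NNE at D10, and equal weight per cell gave 2 for CP. UMIs per cell gave 2 and 3 (S and G2M, D10) and 8 and 17 (D15), and phases scored again gave 1 (G2M, D10), 9 and 7 (S and G2M, D15). The shares of all genes past the fold moved in these settings too. With UMIs per cell, 32.1% of all genes were higher in G2M than in G1 at D15, against 8.76% as reported. The 2 phase sets agreed on 85.1% of D10 and 85.5% of D15 ENCCs. In 3 settings the members' median moved to the other side of the median of all genes. The cause of these shifts was not tested, other than that unscaled UMIs per cell include depth. Leaving out ENCCs outside the numbered subclusters, an alternative chosen after seeing the data, left 5 higher and 2 lower between stages. No paired analysis was possible because each stage has 1 library. Leaving out a replicate was not possible for the same reason. Depth limits the members with the lowest CPM and the classes of 43 and 47 cells.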

Other observations

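Cells the authors labelled as filtered for low quality carried lower summed member levels than kept cells at both stages, with intervals apart. At D10 they had a median of 3679 UMIs against 7101 in kept cells, and a median mitochondrial share of 4.73% against 3.54%. The 2332 D10 cells summed to 4736 CPM against 5455 CPM in kept cells, with 28 of 38 members lower and 0 past 1.5-fold (background 6.33% higher, 0.64% lower). These D10 cells carried summed NEP markers at 878 CPM against 435 CPM, NNE markers at 1103 against 578 CPM and ENCC markers at 747 against 1170.1 CPM, and the part of these was not tested. The 984 D15 cells had a median of 21367 UMIs against 11089 in kept cells and summed to 4856 CPM against 5204 CPM, with 23 of 38 lower and 0 past 1.5-fold (background 10.7% higher, 1.35% lower). DDX21 was at 152 CPM in these and 117 CPM in kept cells, and they carried summed CP markers at 503 CPM against 62.5 CPM.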
